A study of Homo sapiens with 16 samples.

Results

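The 33 genes described here encode the enzymes, membrane proteins and proton pump subunits of the lysosome, with the 3 transcription factors of the MiT/TFE family (TFEB, TFE3 and MITF) that drive their expression. They were chosen by name as a gene module and not by their values, but with earlier results of these data known. Of the 33, 31 had a row in both expression tables of the study, which listed 13559 genes in one experiment and 14024 in the other. CTSZ, a cathepsin, and NEU1, a sialidase, had no row and were not analysed here. RNA was sequenced from LN229, a human glioblastoma (GBM) cell line that the study did not authenticate. In the untreated experiment, 2 libraries of cells in regular culture (complete medium at normal oxygen) were compared with 2 of cells in ischemic culture (little glucose, glutamine and serum at low oxygen). In the inhibitor experiment, each culture was combined with DMSO (the solvent control), VX745 (an inhibitor of the stress kinase p38α) or MK25 (an inhibitor of MK2, a kinase that p38 activates), with 2 libraries in each of 6 groups. The labels name no transgene or deletion in any group. The labels give no dose, and the methods of the study list VX745 and MK25 at different concentrations, so the compounds were compared as they were used.

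The lysosome breaks down proteins, glycans and lipids that arrive by endocytosis and autophagy. A vacuolar proton pump (V-ATPase) acidifies its lumen, in which cathepsins, glycosidases and lipid hydrolases are active. When nutrients are plentiful, the kinase complex mTORC1 is held at the lysosomal surface by the Rag GTPases and phosphorylates TFEB, TFE3 and MITF, which keeps them in the cytoplasm. When it is inactive, or when the Rag activator folliculin (FLCN) is lost, the factors enter the nucleus and bind a short palindrome, CACGTG, in the promoters of lysosomal genes. A close variant, CATGTG, can also be bound, for instance by MITF. GPNMB, a transmembrane glycoprotein first known from melanoma cells, is a frequently used readout of these factors. Since their activity is set mainly by location in the cell, their mRNA levels do not measure it.

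Since these letters are the known link between the factors and the other members, they were searched on both strands of promoter windows from 250 bases before to 50 bases after each gene start (RefSeq, build GRCh38.p14). The table of windows held 22 of the 33 members. CACGTG occurred in a window of 8 of these 22 (36.4%), and in 8.8% of all 27305 genes with a window. The longer GTCACGTG, which includes the first motif, occurred in 6 of the 22 members (27.3%) and in 2.9% of all genes, and the palindrome TCACGTGA, which overlaps both, in 5 (22.7%) and in 1.2%. Among the 11087 genes with both a window and a row in the inhibitor experiment, these motifs occurred in 12.4%, 5.2% and 2.2%. The variant CATGTG and its longer form TCATGTGA, which were added after the data were seen, occurred in 5 (22.7%) and 3 (13.6%) of the members and in 13.4% and 1.2% of all genes. The stretches that follow, all upstream of the start, are from the 6 members with GTCACGTG and from GPNMB and TPP1, which carry TCATGTGA. Another stretch of LAMP1 and those of CD63, which also carries TCATGTGA, are not shown. The stretches shown are written 5′ to 3′ on the strand of the gene. Capitals mark CACGTG with its extension in GTCACGTG or TCACGTGA on either strand, and in GPNMB and TPP1 they mark TCATGTGA or its reverse complement.

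LAMP1 (chr13:113297030-113297117, plus strand): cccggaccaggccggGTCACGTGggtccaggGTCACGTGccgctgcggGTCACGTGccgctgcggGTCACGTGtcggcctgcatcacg
GAA (chr17:80101488-80101572, plus strand): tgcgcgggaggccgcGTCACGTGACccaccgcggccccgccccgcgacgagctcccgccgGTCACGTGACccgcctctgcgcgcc
CTSA (chr20:45891276-45891332, plus strand): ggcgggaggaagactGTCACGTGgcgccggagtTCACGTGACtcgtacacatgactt
MCOLN1 (chr19:7522566-7522623, plus strand): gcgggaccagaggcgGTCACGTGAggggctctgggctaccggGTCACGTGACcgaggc
CTSD (chr11:1763952-1763989, minus strand): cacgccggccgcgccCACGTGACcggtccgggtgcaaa
ATP6V0D1 (chr16:67481195-67481233, minus strand): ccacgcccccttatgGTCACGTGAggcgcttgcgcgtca
GPNMB (chr7:23246697-23246734, plus strand): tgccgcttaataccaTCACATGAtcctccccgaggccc
TPP1 (chr11:6619423-6619458, minus strand): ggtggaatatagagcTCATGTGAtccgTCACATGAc

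LAMP1, a structural glycoprotein of the lysosomal membrane, carried 4 copies of GTCACGTG in the stretch shown and 6 copies of CACGTG in its whole window. The windows of TFE3, MITF, TFEB and LIPA held none of the CACGTG motifs. A match describes letters in a window and is not a measured binding site.

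Between 20122017 and 37562668 reads per library lay on listed genes, with 22346073 to 28373993 in the untreated experiment. The values are log2 normalized CPM (counts scaled to library size), and since each experiment was normalized on its own, no level is set against one of the other experiment. In every ischemic library CA9, VEGFA, ANKRD37 and PDK1, which respond to low oxygen, were above every regular library of the same experiment. Of 9 glioma markers, VIM, CD44 and TNC were at 9.57 or more in every library and NES was at 8.40 to 9.90, EGFR at 5.81 to 7.11 and SOX2 at 3.13 to 6.48. GFAP was at 1.06 or less, SOX9 at 2.15 or less and OLIG2 at 3.09 or less. Of 6 macrophage markers 4 had no row in either table, nor had any of 3 endothelial markers, and the others were at 1.72 or less. Replicates of a group differed by more than sampling noise (chi-square per gene from 3.29 to 9.40), so no pair was a repeat deposit of 1 library. The labels do not say whether the libraries came from separate cultures, so p-values measure the spread between these libraries, which may be technical.

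Together the 31 members held 0.45% and 0.46% of the reads in untreated regular culture and 0.49% and 0.51% in untreated ischemic culture. In the inhibitor experiment their share was 0.48% and 0.50% in regular culture with DMSO, 0.55% in both ischemic DMSO libraries, and 0.61% and 0.60% in ischemic culture with MK25. The share of reads was thus higher in both ischemic libraries than in both regular ones within DMSO. It was highest of the 6 groups with MK25 in ischemic culture. It counts reads before normalization, so it does not measure a rise in normalized level. PSAP, the saposin precursor, alone held 30879 of 144427 and 25762 of 117744 member reads in regular DMSO culture. In ischemic DMSO culture PSAP held 41645 of 149399 and 49357 of 179138. Its normalized level in ischemic culture was nearly the same with DMSO (10.73 and 10.71 log2 CPM) and with MK25 (10.76 and 10.72). Per kilobase of the reference transcript (MANE Select), CD63 (a tetraspanin), PSAP (the precursor of the saposins), CTSD (cathepsin D) and CTSA (protective protein) were the most abundant members in regular DMSO culture, at 475, 369, 196 and 171 normalized CPM per kilobase. At the other end, MITF stood at 3.57, TFEB at 2.11 and GPNMB at 1.84, whereas TFE3 reached 27.8. In ischemic DMSO culture PSAP, at 614 normalized CPM per kilobase, moved ahead of CD63 at 480.5. With MK25 in ischemic culture GPNMB rose to 6.77 on this scale, above TFEB at 2.24 and MITF at 2.23, while staying far below CTSD at 352.

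Of the 3 factors, TFE3 and MITF changed with culture in opposite directions, and TFEB passed the test in neither experiment. TFE3 was at 6.40 and 6.42 log2 CPM in the untreated regular libraries and at 7.34 and 7.39 in the untreated ischemic libraries. In the inhibitor experiment TFE3 was at 6.48 and 6.55 in regular and 7.31 and 7.41 in ischemic culture with DMSO. The groups were well apart in both experiments, with differences of 0.96 ± 0.07 (SE) on the log2 scale untreated (limma, adjusted p = 8.25e-08) and 0.84 ± 0.06 with DMSO (adjusted p = 1.97e-09). MITF went the other way. It was at 4.10 and 4.14 log2 CPM in untreated regular and 3.38 and 3.54 in untreated ischemic culture, and at 4.11 and 4.09 against 3.45 and 3.41 with DMSO. Again no ischemic library reached a regular one, and MITF fell by 0.66 ± 0.11 (adjusted p = 0.00019) and by 0.67 ± 0.10 on the log2 scale (adjusted p = 7.43e-06). In bulk RNA, fewer cells with a transcript and less of it per cell cannot be told apart. TFEB had only 73 to 186 reads per library. Its levels of 1.60 and 1.75 in untreated regular and 1.92 and 2.0 in untreated ischemic culture did not pass the test (difference 0.28, 95% interval -0.11 to 0.67). With DMSO the TFEB libraries of both cultures overlapped, at 2.43 and 2.16 in regular and 2.41 and 2.11 in ischemic culture.

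**Figure D1:**
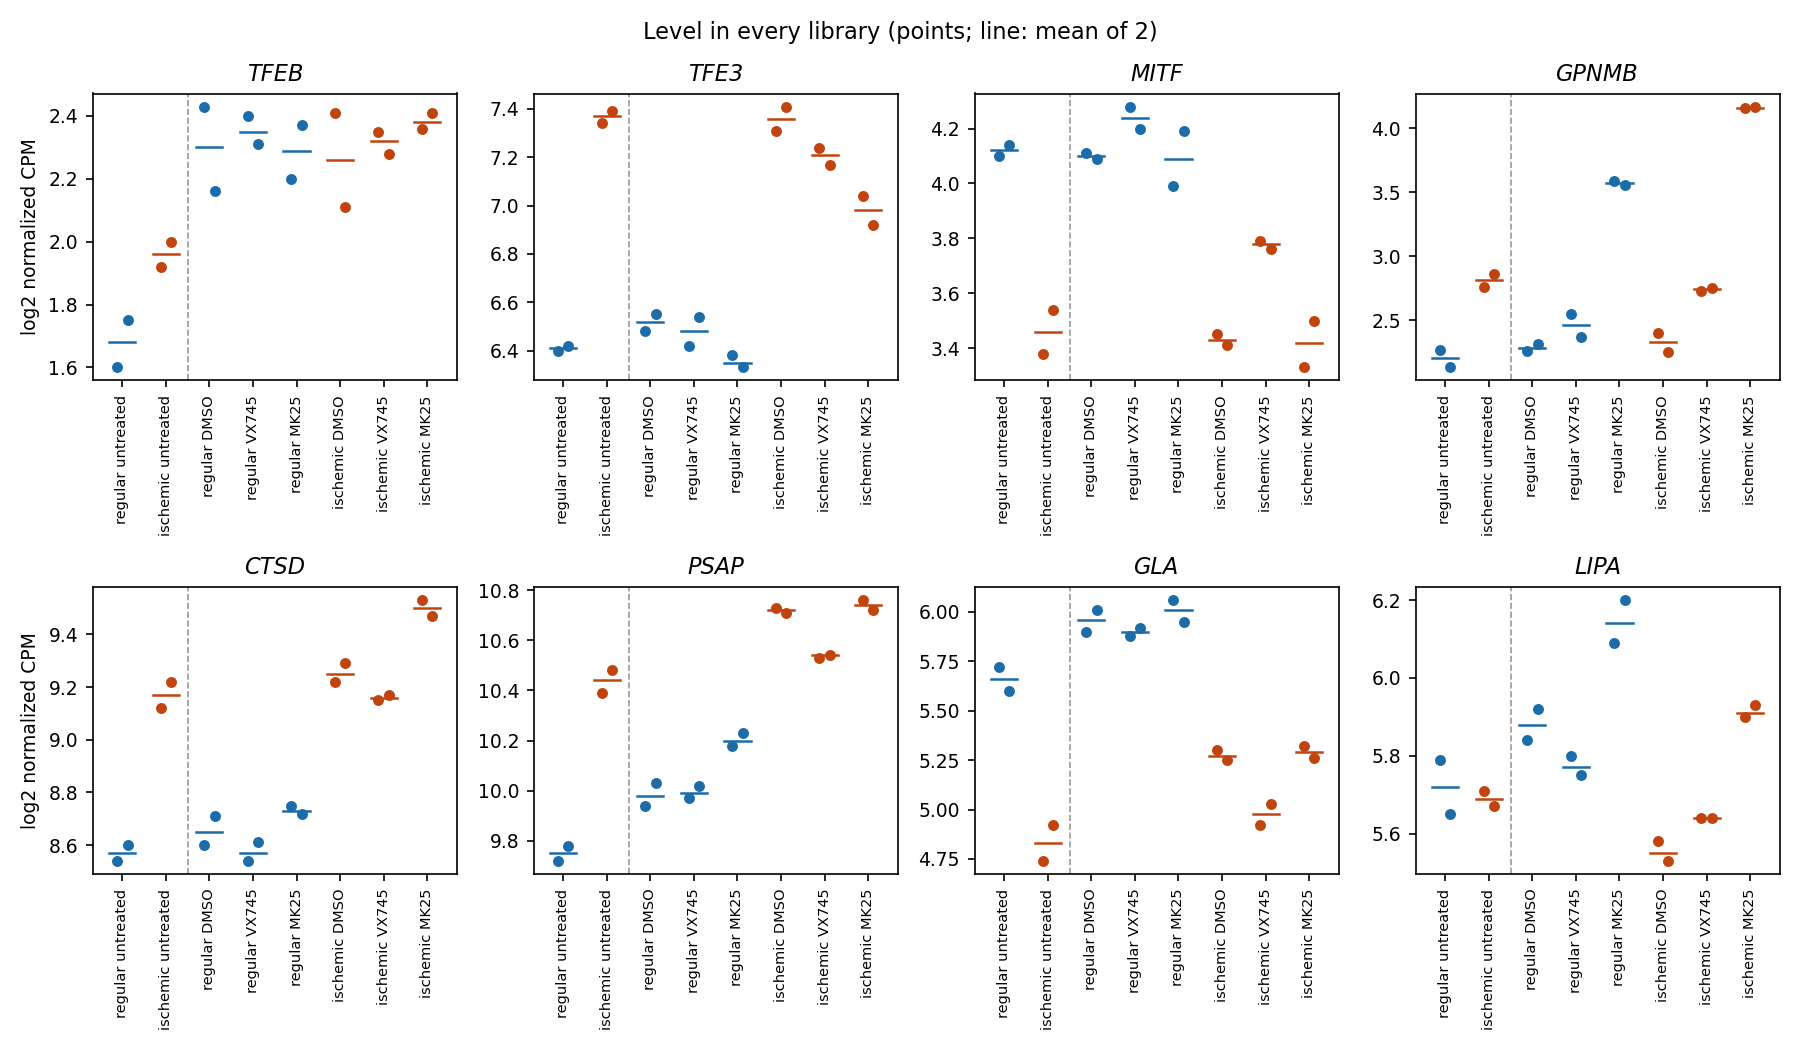
Log2 normalized CPM (vertical axis, a separate range for each gene and not starting at 0) of TFEB, TFE3, MITF, GPNMB, CTSD, PSAP, GLA and LIPA in all 16 libraries. Points are libraries, lines are means of 2, ischemic groups are orange and regular groups blue, and the dashed line parts the experiments, which were normalized separately. TFE3 is higher and MITF lower in ischemic culture throughout, and GPNMB stands out in both MK25 groups.

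Across all members, 14 were higher in untreated ischemic than regular culture, as were 35.2% of all genes tested, and 8 were lower, as were 35.2% of all genes. With DMSO 15 were higher (all genes, 34.4%) and 9 lower (35.2%). Under VX745, 15 members were higher (34.0%) and 8 lower (32.6%). Under MK25, 15 were higher (33.5%) and 10 lower (33.7%). As a share of 31 the members thus lay above the background on the rising side. On the falling side they lay below it untreated, with DMSO and with VX745, and close to it with MK25 (10 of 31 beside 33.7%). The shares were not tested against the background. Their median log2 change was 0.16 untreated and 0.08 with DMSO, beside -0.009 and -0.007 for all genes. The 4 comparisons used separate libraries. In all 4, 12 members were higher (TFE3, CTSA, CTSB, CTSD, TPP1, GAA, GLB1, GUSB, HEXA, PSAP, ATP6V1H and ATP6AP1) and 6 were lower (MITF, LAMP2, GLA, NAGLU, ATP6V0D1 and ATP6V1A). The share of all genes called alike in all 4 was not counted, so the 12 and 6 have no background beside them. Some calls of these members rested on single libraries. With VX745 the call of LAMP2 was lost without replicate 1 of either culture (adjusted p up to 0.0941), and that of NAGLU without either ischemic library or regular replicate 2 (up to 0.219). With MK25 the call of NAGLU was lost without regular replicate 1 (0.0939), and that of ATP6V1H without replicate 2 of either culture (up to 0.205). No member was called in opposite directions untreated and with DMSO. The changes were moderate, and no member reached a fold change of 2.

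**Figure D2:**
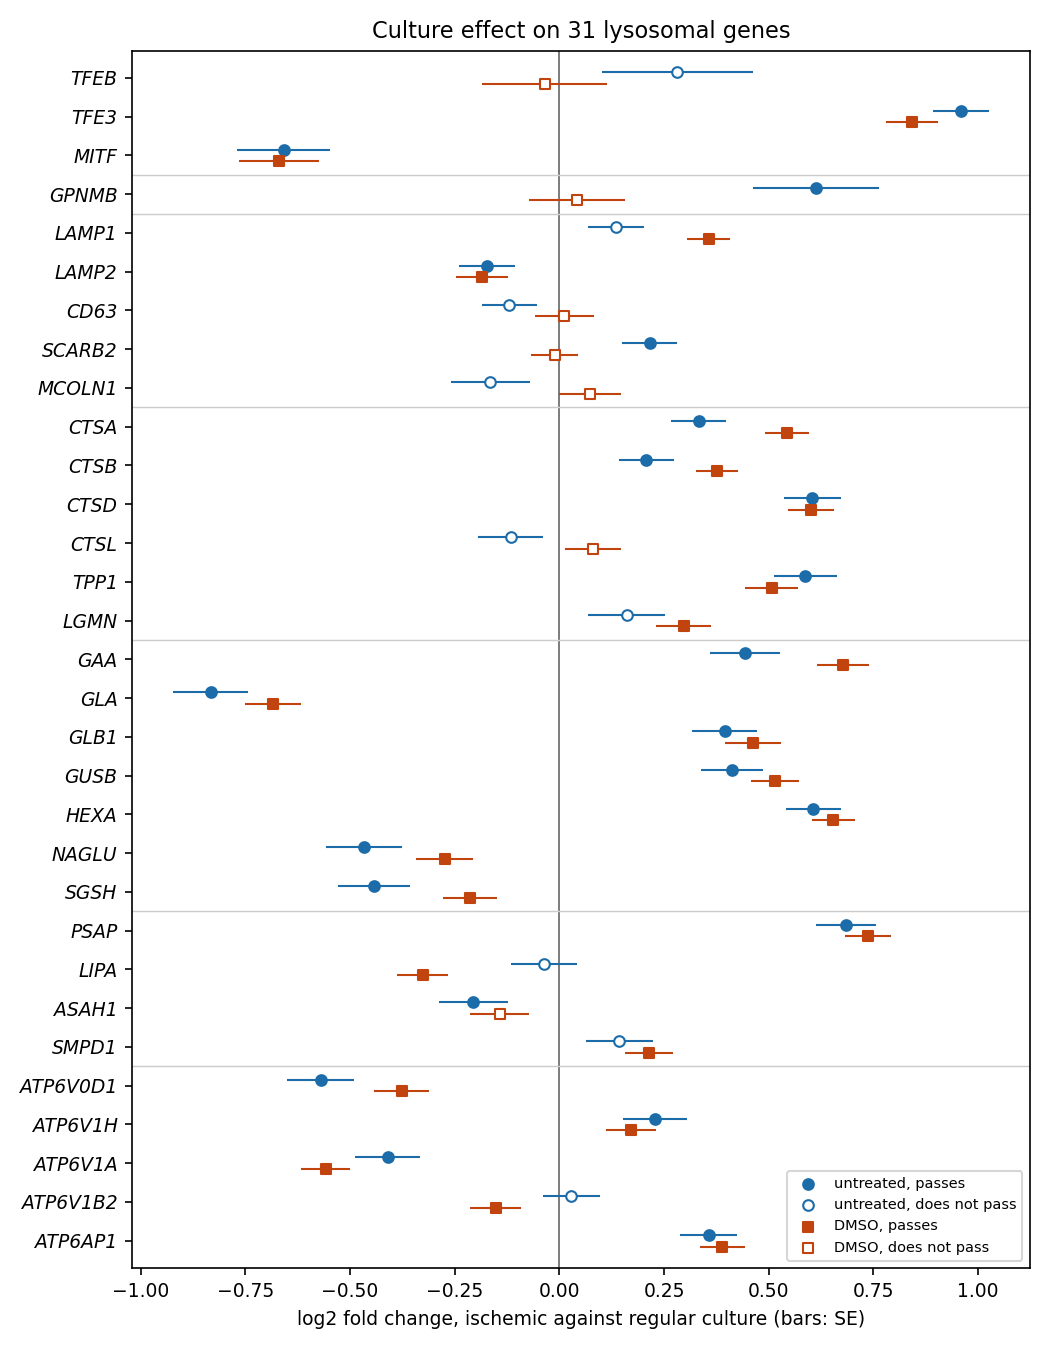
Log2 fold change of ischemic against regular culture (horizontal axis, bars are the SE) for 31 members (rows, grey lines part their roles), untreated (circles) and with DMSO (squares). Filled symbols passed at an adjusted p under 0.05 in limma. The proteases other than CTSL and most glycosidases lie right of 0 in both, whereas MITF, GLA, NAGLU, SGSH, ATP6V0D1 and ATP6V1A lie left of it.

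Among the cathepsins and other proteases, 4 of 6 measured members rose untreated (all genes, 35.2%) and 5 of 6 with DMSO (34.4%). None fell (all genes, 35.2% in either comparison). CTSD, the main aspartic protease of the lysosome, was at 8.54 and 8.60 log2 CPM in untreated regular and 9.12 and 9.22 in untreated ischemic culture. With DMSO CTSD was at 8.60 and 8.71 in regular and 9.22 and 9.29 in ischemic culture, a fold change of 1.52 in either experiment. TPP1, which removes tripeptides from protein ends and is lost in a form of childhood neuronal storage disease, rose by 0.59 ± 0.08 untreated and 0.51 ± 0.06 with DMSO. CTSA, which stabilises other lysosomal enzymes, rose by 0.33 and 0.54, and CTSB by 0.21 and 0.38. The untreated call of CTSB was lost without ischemic replicate 2 or regular replicate 1 (adjusted p up to 0.0848). CTSL, a cysteine protease close to CTSB, changed by -0.12 untreated and 0.08 with DMSO, neither past the test. LGMN, the asparaginyl endopeptidase that processes cathepsins, rose by 0.30 with DMSO and differed by 0.16 untreated (adjusted p = 0.138).

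The glycan-degrading enzymes split. HEXA, GAA, GLB1 and GUSB rose and GLA, NAGLU and SGSH fell in both experiments. GAA, the acid α-glucosidase that degrades glycogen, was at 5.64 and 5.81 log2 CPM in untreated regular and 6.12 and 6.23 in ischemic culture, and at 5.38 and 5.54 against 6.14 and 6.14 with DMSO. It rose by 0.44 and by 0.68 on the log2 scale. HEXA, the α-subunit of β-hexosaminidase, rose by 0.61 and 0.65 (fold 1.52 and 1.57). GLA, which removes terminal galactose from glycolipids, had the largest fall of any member. It was at 5.72 and 5.60 log2 CPM in untreated regular and 4.74 and 4.92 in ischemic culture, and at 5.90 and 6.01 against 5.30 and 5.25 with DMSO. All its ischemic libraries were below all regular ones, with falls by 0.83 ± 0.09 (adjusted p = 4.12e-06) and by 0.68 ± 0.07 (adjusted p = 8.33e-08). NAGLU and SGSH both act on heparan sulfate. NAGLU fell by 0.47 untreated and by 0.27 with DMSO, and SGSH fell by 0.44 and by 0.21. The DMSO call of SGSH was lost without regular DMSO replicate 2 (adjusted p = 0.0879).

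PSAP, whose saposins present lipids to hydrolases, was at 9.72 and 9.78 log2 CPM in untreated regular and 10.39 and 10.48 in ischemic culture, and at 9.94 and 10.03 against 10.73 and 10.71 with DMSO. The groups did not overlap, and the fold changes were 1.61 and 1.67 (adjusted p = 3.32e-06 and 2.66e-09). The 3 lipid hydrolases gave smaller or opposite values. LIPA, the acid lipase that releases cholesterol from lipoprotein esters, differed by -0.04 untreated and fell by 0.33 with DMSO. ASAH1, acid ceramidase, fell by 0.21 untreated, a call lost without ischemic replicate 2 or either regular library (adjusted p up to 0.208), and differed by -0.14 with DMSO. SMPD1, acid sphingomyelinase, rose by 0.21 with DMSO, a call kept with any library left out, and differed by 0.14 untreated.

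The V-ATPase members split by subunit. ATP6AP1, an accessory subunit needed for assembly, rose by 0.36 untreated and 0.39 with DMSO. ATP6V1A, the catalytic subunit, was at 6.04 and 6.16 log2 CPM in untreated regular and 5.72 and 5.66 in ischemic culture, and at 6.17 and 6.13 against 5.58 and 5.60 with DMSO. ATP6V0D1, which couples the membrane and cytosolic sectors, was at 5.62 and 5.55 against 4.99 and 5.04 untreated, and at 6.03 and 6.08 against 5.69 and 5.67 with DMSO. In either gene every ischemic library was below every regular one. ATP6V1A fell by 0.41 and by 0.56, and ATP6V0D1 by 0.57 and by 0.38. ATP6V1H, a regulatory subunit, rose by 0.23 and 0.17, but lost the call when a single library was left out in either experiment (ischemic or regular replicate 2 untreated, adjusted p up to 0.15, and ischemic or regular replicate 1 with DMSO, up to 0.0909, and any of the 4 libraries with VX745, up to 0.142). ATP6V1B2, a nucleotide-binding subunit, differed by 0.03 untreated and fell by 0.15 with DMSO, the latter lost without ischemic or regular DMSO replicate 1 (adjusted p up to 0.324).

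Of the membrane proteins, LAMP2, which also serves chaperone-mediated autophagy, fell by 0.17 untreated and 0.19 with DMSO. The LAMP2 calls were lost without ischemic replicate 1 or either regular library untreated (adjusted p up to 0.254) and without ischemic or regular replicate 2 with DMSO (up to 0.14). LAMP1 rose by 0.36 with DMSO (adjusted p = 9.83e-06) and differed by 0.14 untreated (adjusted p = 0.0864). SCARB2, a sorting receptor of the lysosomal membrane, rose by 0.22 untreated, lost without regular replicate 1 (adjusted p = 0.0871), and differed by -0.01 with DMSO. CD63 and MCOLN1, a calcium channel of the lysosomal membrane, passed in neither experiment. GPNMB differed between the experiments. It was at 2.27 and 2.13 log2 CPM in untreated regular and 2.76 and 2.86 in untreated ischemic culture, a rise of 0.61 ± 0.15 (adjusted p = 0.00291). With DMSO it was at 2.26 and 2.31 in regular and 2.40 and 2.25 in ischemic culture, which overlapped (difference 0.04 ± 0.11, adjusted p = 0.754). The difference between the experiments was not tested.

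With MK25, GPNMB was the member that moved most. In ischemic culture it was at 2.40 and 2.25 log2 CPM with DMSO, 2.73 and 2.75 with VX745, and 4.16 and 4.17 with MK25. In regular culture it was at 2.26 and 2.31 with DMSO, 2.55 and 2.37 with VX745, and 3.59 and 3.56 with MK25. Both MK25 groups were above every other library of the experiment. Against DMSO the fold change was 3.57 in ischemic (log2 1.84 ± 0.11, limma, adjusted p = 4.05e-09) and 2.44 in regular culture (1.29 ± 0.11, adjusted p = 5.26e-07). Against VX745 it was 2.68 in ischemic and 2.16 in regular culture (adjusted p = 9.3e-08 and 3.56e-06). These 4 calls held with any library left out, and GPNMB was the only member past a fold change of 1.5 in any inhibitor comparison. The rise with MK25 was larger in ischemic than in regular culture by 0.55 ± 0.16 on the log2 scale (interaction, adjusted p = 0.0194). That call was lost without ischemic DMSO replicate 2, ischemic MK25 replicate 1 or ischemic MK25 replicate 2 (adjusted p up to 0.0716). None of TFEB, TFE3 and MITF passed the test upward with MK25 in either culture.

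TFE3 was lower with MK25 in ischemic culture. It was at 7.31 and 7.41 log2 CPM with DMSO, 7.24 and 7.17 with VX745, and 7.04 and 6.92 with MK25, so both MK25 libraries were below the other 4. It fell by 0.38 ± 0.06 against DMSO (adjusted p = 0.000142). Against VX745 it fell by 0.22 (adjusted p = 0.0181), a call lost without ischemic MK25 replicate 2 or either VX745 library (adjusted p up to 0.178). In regular culture TFE3 was at 6.48 and 6.55 with DMSO, 6.42 and 6.54 with VX745, and 6.38 and 6.33 with MK25 (MK25 against DMSO -0.16, adjusted p = 0.0995). MITF in ischemic culture was at 3.45 and 3.41 with DMSO, 3.79 and 3.76 with VX745, and 3.33 and 3.50 with MK25, so that only the VX745 libraries stood apart. It rose by 0.35 ± 0.10 with VX745 (adjusted p = 0.0114), lost without ischemic DMSO replicate 2 or either VX745 library (up to 0.0779), and was 0.36 lower with MK25 than with VX745 (adjusted p = 0.0132), lost without ischemic MK25 replicate 1 or either VX745 library (up to 0.138). In regular culture MITF was at 4.11 and 4.09, 4.28 and 4.20, and 3.99 and 4.19 with DMSO, VX745 and MK25, and passed no test. TFEB passed in no comparison. Its libraries lay between 2.11 and 2.43 over all 6 groups, and the 95% interval of MK25 against DMSO ran from -0.19 to 0.44 in ischemic and from -0.33 to 0.30 in regular culture.

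Of all 31 members, MK25 raised 7 in ischemic culture, beside 19.8% of all genes, and lowered 3, beside 22.0%. As shares of 31 these were near or below the background, and the median log2 change of the members was 0.02. The 7 that rose were GPNMB, ATP6V1B2, NAGLU, LIPA, ASAH1, ATP6V1A and CTSD, and each kept its call with any library left out. ATP6V1B2 was at 6.54 and 6.66 log2 CPM with DMSO, 6.65 and 6.62 with VX745, and 7.0 and 6.94 with MK25. NAGLU was at 5.06 and 5.01, 5.28 and 5.21, and 5.39 and 5.41 in the same order. LIPA was at 5.58 and 5.53, 5.64 and 5.64, and 5.90 and 5.93. In each the MK25 libraries lay above all others in ischemic culture, with rises of 0.37, 0.36 and 0.36 against DMSO. LIPA, ATP6V1A and NAGLU fell with ischemia in DMSO. LIPA with MK25 in ischemic culture, at 5.90 and 5.93, stood beside 5.84 and 5.92 in regular DMSO culture. With MK25 in regular culture LIPA was at 6.09 and 6.20, so it was also called lower with ischemia under MK25. No interaction of MK25 with culture was called for LIPA. CTSD instead rose further, from 9.22 and 9.29 with DMSO to 9.53 and 9.47 with MK25 (0.25 ± 0.06, adjusted p = 0.00164). Besides TFE3, GUSB, a β-glucuronidase, fell by 0.17 and LAMP1 by 0.14. The GUSB call was lost without ischemic DMSO replicate 2 or MK25 replicate 2 (adjusted p up to 0.192), and that of LAMP1 without any of the 4 libraries (up to 0.196), while quantile normalization gave LAMP1 0.01.

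In regular culture MK25 raised 7 members, beside 7.0% of all genes, and lowered none, beside 5.21%, and the share of 31 that rose was above the background. These were GPNMB, NAGLU, LIPA, CD63, PSAP, CTSL and HEXA, with rises other than that of GPNMB between 0.20 and 0.32 on the log2 scale. NAGLU went from 5.28 and 5.34 with DMSO to 5.69 and 5.56 with MK25, and LIPA from 5.84 and 5.92 to 6.09 and 6.20. CD63 was at 8.88 and 8.97 with DMSO and 9.28 and 9.07 with MK25. These groups did not overlap, but the calls were less firm than in ischemic culture. Only GPNMB kept its call in all 4 fits with a library left out, and 4 members passed without regular DMSO replicate 1, without MK25 replicate 1 or without MK25 replicate 2. With the 4 libraries of these groups alone, 2 passed. The regular MK25 libraries also stood apart in the genes that respond to low oxygen. PDK1 was at 5.33 and 5.34 log2 CPM in them and between 3.34 and 3.62 in the regular DMSO and VX745 libraries, and VEGFA at 6.34 and 6.39 beside 5.33 to 5.47. CA9 was at 2.14 and 2.30 beside -2.01 to 0.27, and ANKRD37 at 1.79 and 1.43 beside -0.56 to 0.19. Their part in the rise of the members was not tested.

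VX745 gave a different picture. In ischemic culture it raised 3 members (all genes, 14.0%) and lowered 8 (14.9%), and the median log2 change of the members was -0.08. GPNMB rose by 0.41 ± 0.11 (adjusted p = 0.0118), MITF as given above, and NAGLU by 0.21. CD63, MCOLN1, LAMP1, LAMP2, GLA, PSAP, CTSA and HEXA fell, and thus 4 of the 5 membrane proteins. CD63 was at 9.0 and 8.88 log2 CPM with DMSO and 8.54 and 8.63 with VX745 (fall by 0.35 ± 0.07, adjusted p = 0.00133). GLA was at 5.30 and 5.25 with DMSO and 4.92 and 5.03 with VX745 (fall by 0.30), and MCOLN1 at 4.91 and 4.96 with DMSO and 4.69 and 4.66 with VX745 (fall by 0.26). None of these groups overlapped. CD63 alone kept its call with any library left out. The 11 calls became 6 without ischemic DMSO replicate 1, 3 without DMSO replicate 2, 1 without VX745 replicate 1 and 3 without VX745 replicate 2, and 3 under quantile normalization, where CD63, GPNMB and MITF did not pass (adjusted p = 0.0793, 0.108 and 0.0795). In regular culture limma called 0 members with VX745 in either direction, beside 0.178% of all genes higher and 0.157% lower. An unadjusted p under 0.05 was reached by 2 members and by 2075 of all 14024 genes. Without regular DMSO replicate 1, 1 member passed.

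**Figure D3:**
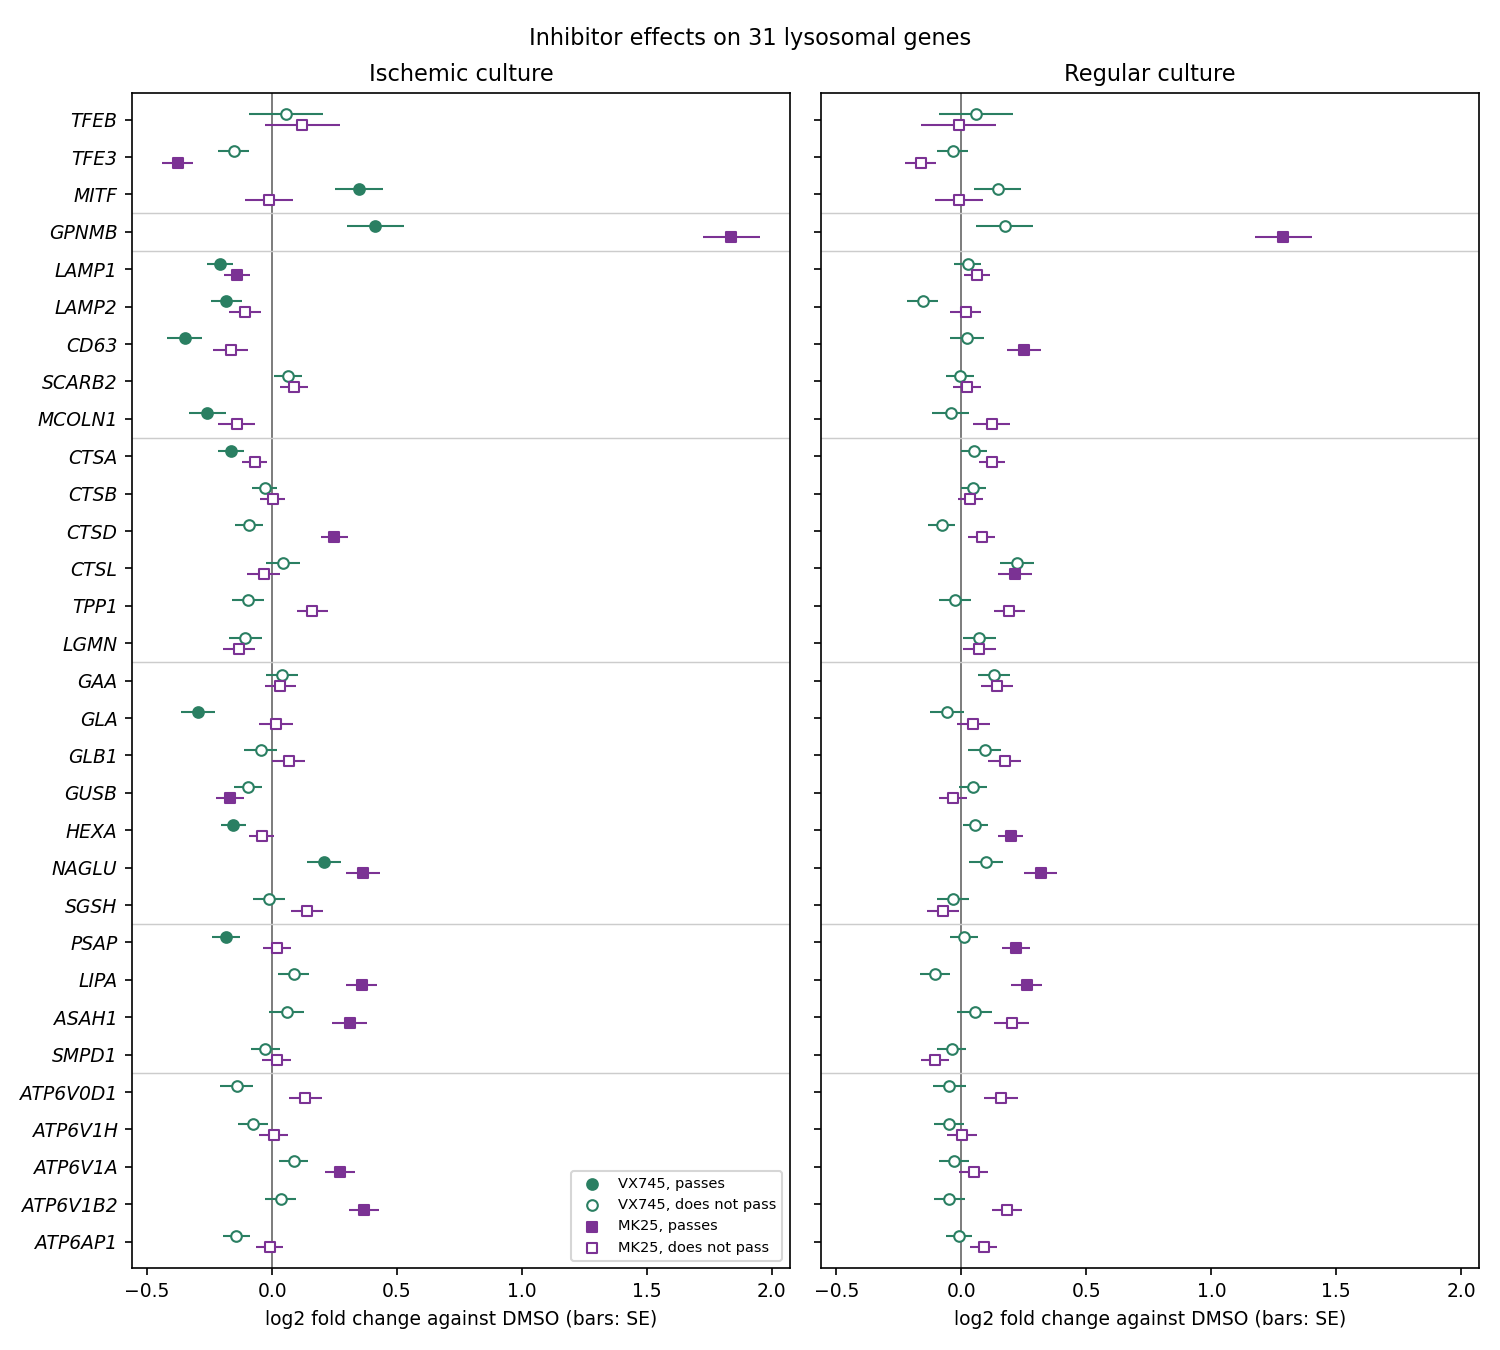
Log2 fold change against DMSO (horizontal axis, bars are the SE) with VX745 (circles) and MK25 (squares) for 31 members (rows) in ischemic (left) and regular culture (right). Filled symbols passed at an adjusted p under 0.05 in limma, and the compounds share the DMSO libraries of each culture. GPNMB with MK25 lies far right of all other members, at 1.84 and 1.29, and every other member lies between -0.38 and 0.37.

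Both comparisons with DMSO share its libraries, so the compounds were compared directly. In ischemic culture 10 members were higher with MK25 than with VX745 (all genes, 8.22%) and 2 were lower (10.2%), and the median log2 difference of the members was 0.11 beside -0.006 for all genes. The 10 were GPNMB, CTSD, ATP6V1B2, GLA, LIPA, ATP6V0D1, TPP1, ASAH1, PSAP and ATP6V1A, and so included 3 of the 5 V-ATPase members and 3 of the 4 genes of lipid breakdown. CTSD was at 9.15 and 9.17 log2 CPM with VX745 and 9.53 and 9.47 with MK25 (0.34 ± 0.06, adjusted p = 0.000249). ATP6V0D1 was at 5.48 and 5.60 with VX745 and 5.82 and 5.80 with MK25 (0.28 ± 0.07), and TPP1 at 7.06 and 7.0 with VX745 and 7.29 and 7.27 with MK25 (0.26 ± 0.06). GLA was at 4.92 and 5.03 with VX745 and 5.32 and 5.26 with MK25, beside 5.30 and 5.25 with DMSO. The libraries did not overlap in any of these. GPNMB, CTSD, LIPA and ATP6V1B2 kept the call with any library left out. The 12 calls became 5 without ischemic VX745 replicate 1, 7 without VX745 replicate 2, 7 without MK25 replicate 1 and 8 without MK25 replicate 2, and those of GLA (adjusted p = 0.0678 without VX745 replicate 1), TPP1 (up to 0.0991) and ATP6V0D1 (up to 0.124) were among the lost. MITF and TFE3 were the 2 that were lower.

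In regular culture 4 members were higher with MK25 than with VX745 (all genes, 3.96%) and none was lower (1.43%). LIPA was at 5.80 and 5.75 log2 CPM with VX745 and 6.09 and 6.20 with MK25 (0.37 ± 0.06, adjusted p = 0.000951). PSAP was at 9.97 and 10.02 with VX745 and 10.18 and 10.23 with MK25 (0.21), and ATP6V1B2 at 6.67 and 6.73 with VX745 and 6.94 and 6.92 with MK25 (0.23). These libraries did not overlap. Only GPNMB and LIPA kept the call with any library left out, since PSAP and ATP6V1B2 were lost without any of the 4 (adjusted p up to 0.167 and 0.181), and 2 members passed without regular VX745 replicate 1 or without VX745 replicate 2. No member differed between the cultures in the difference of MK25 from VX745 (limma, 0 of 31 members, beside 4.85% of all genes). An unadjusted p under 0.05 was reached there by 3 members and by 2401 of all 14024 genes.

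CD63 responded to the inhibitors differently in the 2 cultures. In regular culture it was at 8.88 and 8.97 log2 CPM with DMSO, 9.0 and 8.89 with VX745, and 9.28 and 9.07 with MK25, and in ischemic culture at 9.0 and 8.88, 8.54 and 8.63, and 8.79 and 8.76. The MK25 libraries were thus above DMSO in regular culture and below it in ischemic culture. The interaction of MK25 with culture was called for 3 members, beside 24.4% of all genes, and for CD63 it was -0.42 ± 0.10 (adjusted p = 0.00524). HEXA, which was at 7.71 and 7.74 with DMSO and 7.72 and 7.65 with MK25 in ischemic culture and at 7.04 and 7.10 against 7.27 and 7.26 in regular culture, gave -0.24 ± 0.07 (adjusted p = 0.0226). The third was GPNMB. The interaction of VX745 with culture was called for CD63 only, at -0.37 ± 0.10 (adjusted p = 0.0212), beside 11.8% of all genes. None of the CD63 and HEXA interactions passed under quantile normalization (adjusted p = 0.157 and 0.123 with MK25 and 0.211 with VX745). That of HEXA was lost without either ischemic DMSO library, ischemic MK25 replicate 2, regular DMSO replicate 1 or regular MK25 replicate 1 (adjusted p up to 0.0867), and that of CD63 with VX745 without replicate 1 of ischemic DMSO, ischemic VX745, regular DMSO or regular VX745 (up to 0.11). The number of members with an MK25 interaction was 7 without regular DMSO replicate 1, 5 without regular DMSO replicate 2, and 1 without ischemic DMSO replicate 2 or without ischemic MK25 replicate 2.

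The 6 members with the longer motif GTCACGTG did not move as a group. With ischemia in DMSO, LAMP1, CTSA, GAA and CTSD rose, ATP6V0D1 fell, and MCOLN1 differed by 0.07. With MK25 in ischemic culture CTSD was the only one of the 6 that rose. LAMP1 fell by 0.14, a call lost when any library of the groups compared was left out. GAA differed by 0.03 and MCOLN1 by -0.14. With MK25 in regular culture none of the 6 passed. Of the 3 members with TCATGTGA, GPNMB rose with MK25 in both cultures, TPP1 differed by 0.16 (adjusted p = 0.0506) and 0.19 (adjusted p = 0.0578), and CD63 rose in regular culture (0.25) and differed by -0.17 in ischemic culture (adjusted p = 0.0645).

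The wider pathway was described with 109 other lysosomal genes in 7 lists, of which 102 were measured in the inhibitor experiment and 101 in the untreated one. Ischemia raised 37 and lowered 32 untreated, and raised 38 and lowered 32 with DMSO, shares close to those of all genes. HYAL2, a hyaluronidase, fell by 2.44 untreated and 1.62 with DMSO, LAPTM4B, a membrane protein of late endosomes, fell by 1.35 and 1.02, and CTSC, the protease that activates granzymes, fell by 1.27 and 0.68. MANBA, β-mannosidase, rose by 1.00 and 0.93. Of the 14 other V-ATPase subunits, 2 were higher and 7 lower in either experiment (all genes, 35.2% and 35.2% untreated and 34.4% and 35.2% with DMSO), with a median log2 change of -0.22 untreated and -0.08 with DMSO. ATP6V1C1 (-0.63 with DMSO) and ATP6V0B (-0.59) were among those that fell. The mannose 6-phosphate receptor IGF2R, which sorts new hydrolases to the lysosome, rose by 0.96 and 0.65.

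A further list held genes that control the factors through mTORC1 and folliculin, of which 17 of 18 had a row. Ischemia raised 13 and lowered 4 of them untreated (all genes, 35.2% and 35.2%), and raised 10 and lowered 2 with DMSO (34.4% and 35.2%). RRAGD, a Rag GTPase and known target gene of TFEB and TFE3, rose by 1.49 untreated and 0.91 with DMSO, RRAGA by 0.86 and 1.00, and RPTOR, the scaffold of mTORC1, by 1.2 and 0.79. LAMTOR1, the anchor of the Rag GTPases on the membrane, fell by 1.07 and 0.72.

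MK25 raised 9 of these 17 genes in ischemic culture (all genes, 19.8%) and 8 in regular culture (7.0%), and lowered none (22.0% and 5.21%). VX745 raised 1 (14.0%) and lowered 2 (14.9%) in ischemic culture, and limma called 0 in regular culture (0.178% and 0.157%). RRAGD was at 5.25 and 5.29 log2 CPM with DMSO in ischemic culture, 5.30 and 5.31 with VX745, and 5.89 and 6.11 with MK25, so that no library without MK25 came near those values. RRAGD rose by 0.73 ± 0.08 in ischemic (adjusted p = 1.19e-06) and 0.53 ± 0.08 in regular culture (adjusted p = 0.000146), whereas it differed by 0.03 and -0.11 with VX745. RRAGC, its close relative, rose by 0.73 and 0.30, and FLCN, the activator of both, by 0.43 and 0.57. FNIP1, the partner of FLCN, rose by 0.51 and 0.36, and FNIP1, like LAMTOR1, was named after its values were seen. RPTOR rose alike with VX745 (0.39) and with MK25 (0.38) in ischemic culture, and RRAGA fell by 0.32 with VX745 but rose by 0.21 with MK25. Directly against VX745, 7 of the 17 were higher with MK25 in ischemic culture (all genes, 8.22%) and 5 in regular culture (3.96%), and none was lower (10.2% and 1.43%).

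**Figure D4:**
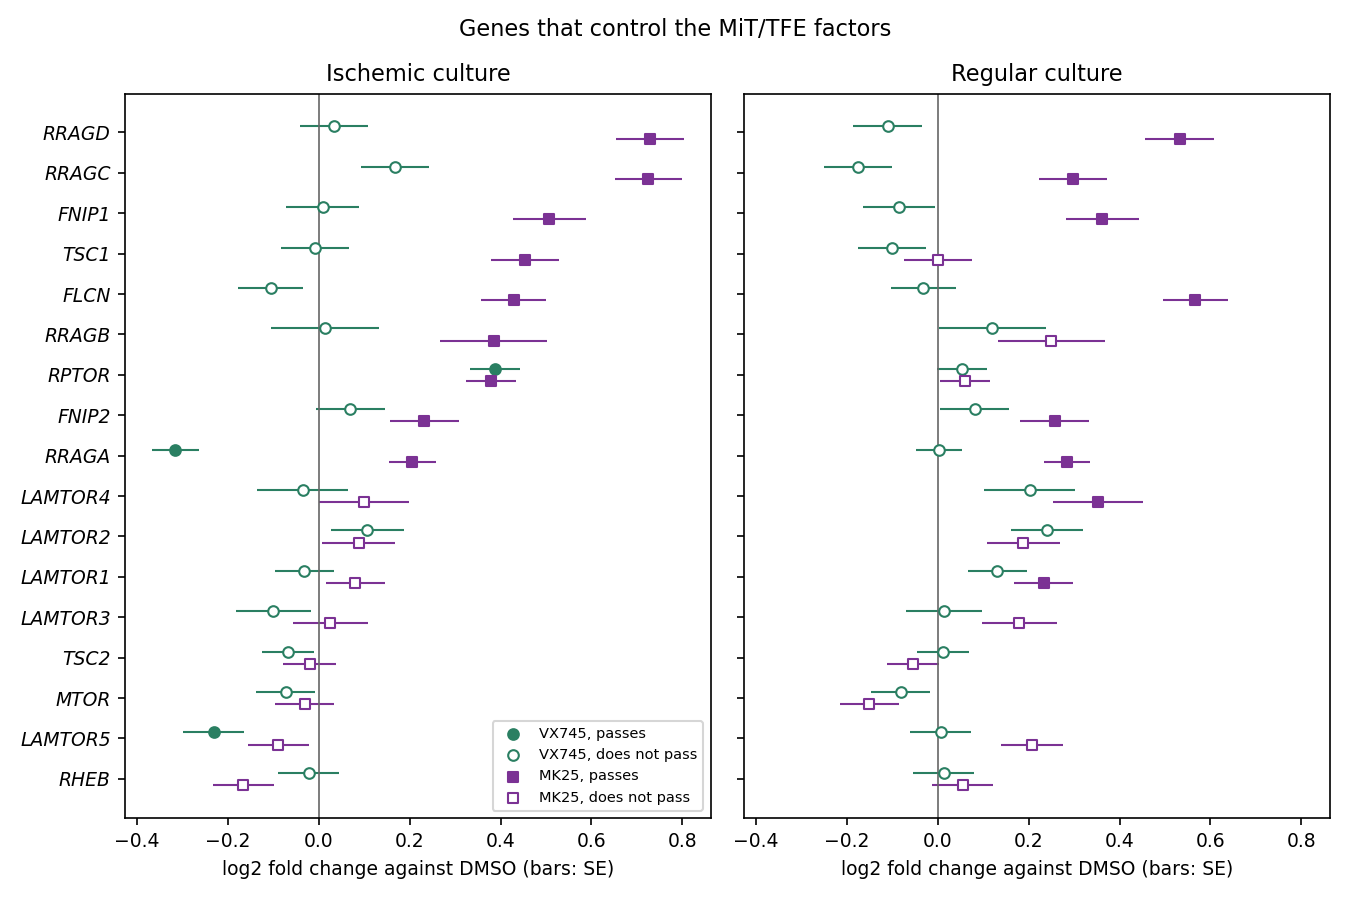
Log2 fold change against DMSO (horizontal axis, bars are the SE) with VX745 (circles) and MK25 (squares) for the 17 measured genes that control the MiT/TFE factors, in ischemic (left) and regular culture (right). Filled symbols passed at an adjusted p under 0.05 in limma, and the compounds share the DMSO libraries of each culture. RRAGD, RRAGC, FNIP1 and FLCN lie right of 0 with MK25 in both cultures, and near or left of it with VX745, except RRAGC at 0.17 in ischemic culture.

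Over all 102 measured pathway genes MK25 raised 37 (all genes, 19.8%) and lowered 10 (22.0%) in ischemic culture, and raised 19 (7.0%) and lowered 2 (5.21%) in regular culture. VX745 raised 7 (14.0%) and lowered 12 (14.9%) in ischemic culture, and limma called 0 in regular culture (0.178% and 0.157%). The pathway genes had a median log2 change of 0.10 with MK25 and -0.03 with VX745 in ischemic culture. SLC17A5, which exports sialic acid from the lysosome, rose with MK25 by 0.69 and 0.68 in ischemic and regular culture, GM2A, the activator of β-hexosaminidase, by 0.83 and 0.41, NPC2, which hands cholesterol to NPC1, by 0.22 and 0.43, and CLCN7, a chloride transporter, by 0.53 and 0.21. Of these, GM2A also rose with VX745 in ischemic culture, by 0.46, and NPC2 fell by 0.24. CTSC fell with MK25 in both cultures, by 0.44 and 0.18. The 47 calls with MK25 in ischemic culture became 30 without DMSO replicate 1 and 27 without DMSO replicate 2. The 21 in regular culture became 12 without DMSO replicate 2 and 11 without MK25 replicate 1. The 19 with VX745 in ischemic culture became 10, 9 and 11 without DMSO replicate 1, VX745 replicate 1 and VX745 replicate 2.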

How the data were processed

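RNA-seq libraries of LN229 cells were taken as the log2 normalized CPM values that the authors deposited, in 1 table per experiment, each normalized on its own. The submitters' processing notes name HISAT2, edgeR and GRCh38 without versions, and the filter that set which genes were listed is not given in the sources used here. Every value gave back a whole number of reads (within 0.05), so depth per library was known, and a floor of 3 reads lay between -2.71 and -2.16 on the log2 scale and covers counting error only. The methods of the study name a count test, but since log2 values were deposited, limma 3.58.1 (R 4.3.3) with a variance trend was fitted to all listed genes of each experiment, and all groups shared the variance. P-values were adjusted by Benjamini-Hochberg over all listed genes, and an adjusted p under 0.05 was called. Gene identifiers were matched to symbols for 99.4% and 99.3% of genes. Tables were handled in Python 3.11.15 with pandas 2.3.3, figures were drawn with matplotlib 3.10.9, and the fit was tested on simulated data.

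The members, the 7 pathway lists and the tests were chosen with earlier results of these data known. TFEB, TFE3, MITF and GPNMB are given in every library, with the 3 largest rises and falls of each comparison and the members called between the compounds or by an interaction (at most 8 each). Up to 3 genes of each pathway list for culture and 2 for each inhibitor comparison are named. Groups follow the labels. Alternatives were a fold limit, unadjusted p, a filter on low values, median centring, quantile normalization, no variance trend, voom on the recovered reads, a replicate block, only the groups compared, and each library left out. Runs on the pathway genes and a crossed pairing were added after seeing the data. Results of 1 gene of the pathway lists are not reported here.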

Additional observations from a re-analysis of the deposited data

Results flagged for a closer look

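In 4 cases the response of a member to an inhibitor differed between the cultures by the test of that difference (limma, interaction, adjusted p under 0.05). GPNMB rose with MK25 by 0.55 more on the log2 scale in ischemic than in regular culture. CD63 had interactions of -0.42 with MK25 and -0.37 with VX745, both of which use the same DMSO libraries. HEXA had an interaction of -0.24 with MK25, rising in regular culture with no call in ischemic culture. With any of the 8 libraries left out, only that of CD63 with MK25 kept its call, and under quantile normalization only that of GPNMB did (adjusted p = 0.0381).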

How the results depend on the processing

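The culture comparisons had 18 to 23 members called untreated with 1 library left out, 22 to 23 with DMSO, 18 to 20 with VX745 and 21 to 24 with MK25, and MK25 against DMSO in ischemic culture had 8 to 9. The smaller sets moved more. With 1 library left out, VX745 against DMSO gave 1 to 6 of 11 in ischemic culture and 0 to 1 in regular culture, and MK25 against DMSO in regular culture gave 4 to 6 of 7. MK25 against VX745 gave 5 to 8 of 12 in ischemic and 2 to 4 of 4 in regular culture, the VX745 interaction 0 to 2 of 1, and the MK25 interaction 1 to 7 of 3. These fits have fewer libraries.

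A fold limit of 1.5 left 8 members untreated, 7 with DMSO, 4 with VX745 and 5 with MK25 in the culture comparisons, and a limit of 2 left 0 in each. Either limit left 0 for VX745 against DMSO in ischemic culture, 1 (GPNMB) for MK25 against DMSO and for MK25 against VX745 in each culture, and 0 for both interactions with DMSO. At an unadjusted p under 0.05 there were 2 for VX745 and 15 for MK25 against DMSO and 12 for MK25 against VX745 in regular culture, and 7, 14 and 3 for the interactions of VX745, of MK25 and of MK25 against VX745. Of all 14024 genes, 2075, 3875 and 2471 passed this limit in the same regular culture comparisons, and 3813, 5133 and 2401 in the interactions. Quantile normalization gave 3 for VX745 against DMSO in ischemic culture. Without a variance trend MK25 in regular culture gave 4 against DMSO and 2 against VX745, and with only the groups compared 2 and 2. The VX745 interaction gave 2 with the filter on low values, 4 with median centring, and 0 with quantile normalization or without a trend. LAMP1 with MK25 in ischemic culture changed sign under quantile normalization (0.0074). The cause of these changes was not tested. Under settings other than a left-out library, 370 values of named members kept direction and call, 22 lost the call and 1 changed sign, and the median log2 change of all genes lay between -0.058 and 0.011 under every scaling run.

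For the pathway genes, VX745 in ischemic culture gave 30 in place of 19 with only the groups compared, and MK25 in regular culture gave 11 in place of 21 so and 9 without a trend.

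The replicate numbers were not shown to pair the libraries, since the deviations of same-numbered libraries correlated at r = 0.185 untreated and from -0.104 to 0.178 over 15 pairs of groups. With the number as a replicate block, the counts of members were 22, 24, 23 and 25 for culture, 11 and 10 for VX745 and MK25 in ischemic culture, 0 and 7 in regular culture, 12 and 4 for MK25 against VX745, and 1, 3 and 0 for the interactions, as without it. A crossed pairing of the ischemic MK25 libraries gave 11 for MK25 against DMSO. With 2 libraries a group, small changes may have been missed, and more so for TFEB with its 73 to 186 reads.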
